A study of Mus musculus with 6 samples.

Results

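The enzymes that build cholesterol and fatty acids were followed in the stem cell fraction of squamous cell carcinomas of mouse skin, with and without Sfrp1. That gene encodes a secreted protein that restrains Wnt signalling. The set was a list of 33 genes, chosen by name from the 2 pathways, and 30 of them had a feature carrying their symbol alone, out of 30142 genes compared. Srebf1, Scd2 and Msmo1 had no such feature and were given no value. For Fads2 and Scd1, which had more than 1 feature, the one with the higher mean over all arrays was used.

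All mice had received the mutagen DMBA on 3 days and then the tumour promoter TPA 2 times a week for 30 to 40 weeks, which raises squamous cell carcinomas in the skin. The WT group came from wild-type mice and the Sfrp1_KO group from Sfrp1-/- mice, each with 3 samples of total RNA hybridised to 1 Affymetrix MTA 1.0 array apiece. The carcinoma cells had been sorted as lineage negative and as positive for Epcam, α6 integrin and CD34. The labels give neither the strain, the age at collection or the sex, nor the part of Sfrp1 that is deleted, and do not say whether each sample was a separate animal. The spread behind the p-values may therefore be partly technical.

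Cholesterol is built from acetyl-CoA through mevalonate, the isoprenoid farnesyl diphosphate, squalene and lanosterol. Fatty acids start from the same acetyl-CoA, through malonyl-CoA and fatty acid synthase, and are then elongated and desaturated. Both routes are controlled by the SREBP transcription factors, membrane-bound proteins that the escort protein Scap carries out of the endoplasmic reticulum when sterols are scarce and that Insig proteins hold back when sterols are plentiful. In epidermis these lipids are known as material of growing membranes, of sebum and of the water barrier.

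Signals are in the deposited log2 units, which reach 19.93 and so exceed the range of an ordinary scanner; a difference of 1 unit need not be a doubling of RNA. The background level of an array was its highest of 23 background probe sets, between 4.82 and 5.10. Markers of the sort differed between the genotypes: Epcam averaged 7.59 ± 1.03 (SD, n = 3) over the WT arrays and 5.03 ± 0.17 over the Sfrp1_KO arrays, of which 1 exceeded background. Itga6, which encodes α6 integrin, averaged 9.51 ± 0.64 and 7.62 ± 0.18 (difference -1.89, limma adjusted p = 0.0292). Cd34 had the opposite sign, with 9.42 ± 0.15 and 10.99 ± 0.71, every Sfrp1_KO array above every WT array, and did not pass (1.57, limma adjusted p = 0.0714). Averaged over 7 markers of basal keratinocytes, the arrays ran from 9.80 to 10.75 in WT and from 6.01 to 6.19 in Sfrp1_KO, and 5 of the 7 fell by the limma test. Averaged over 8 fibroblast markers they ran from 5.50 to 6.62 and from 7.23 to 8.08, with 3 of the 8 higher. These were Vim, Pdgfrb and Thy1, with differences of 5.80, 3.72 and 0.89. Of the 8 differences 6 were above 0 and 2 below, those of Col1a1 (-0.45) and Lum (-0.59), which were not called. Dcn read 6.54, 6.58 and 10.56 in WT. Among all genes 1.45% were called lower and 1.83% higher. Over 9 leukocyte and macrophage markers the arrays ran from 4.49 to 4.67 in WT and from 4.83 to 5.53 in Sfrp1_KO. Of these 9, 0 were called and 6 were higher at an unadjusted limma p under 0.05. Their WT averages lay under the background level, and 3 of the 9 lay under it on all 6 arrays. Of the 9 differences 8 were above 0. The exception was Cd68, which alone exceeded background on all 6 arrays (difference -0.26, limma adjusted p = 0.893). Lyz2 exceeded background on 2 WT and 3 Sfrp1_KO arrays, and averaged 4.94 ± 0.22 and 6.91 ± 1.00. Every Sfrp1_KO array of Lyz2 lay above every WT array, and it did not pass (1.98, limma adjusted p = 0.0941). Of 8 adipocyte markers 7 lay under background on all 6 arrays, Adipoq and Plin1 among them, and of 10 sebaceous gland markers 5 did, including Awat1, Awat2 and Pparg. Averaged over the sebaceous markers the arrays ran from 5.21 to 5.26 in WT and from 4.99 to 5.07 in Sfrp1_KO. Of the sebaceous markers 4 exceeded background on all 6 arrays. Krt79 (difference -1.06, limma adjusted p = 0.0949) had every Sfrp1_KO array below every WT array and did not pass. Mgst1 (-0.75, limma adjusted p = 0.497), Scd3 (0.11, 0.873) and Plin2 (0.17, 0.959) overlapped and did not pass. Fabp4, the only adipocyte marker above background on all 6 arrays, did not pass either (-1.11, limma adjusted p = 0.232). None of the sebaceous or adipocyte markers passed by limma, and 2 and 1 were lower at an unadjusted p under 0.05. The part of these shifts in cell markers in the lipid gene differences was not tested. In RNA from sorted cells, fewer cells of a type and less RNA per cell cannot be told apart.

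Of 15 measured enzymes of cholesterol synthesis 8 fell in Sfrp1_KO, at early and late steps of the route. Of the 30 measured members 12 fell and none rose by limma (adjusted p under 0.05 over all 30142 genes), 8 of these 12 being enzymes of the sterol pathway. Among all genes 1.45% were called lower and 1.83% higher. Among the 10799 genes with a mean above the background level, which included 28 of the members, these shares were 3.44% and 4.40%. The median difference, Sfrp1_KO minus WT, was -0.48 over the members and -0.01 over all genes. At an unadjusted limma p under 0.05, 19 members were lower and 3 higher, against 7.54% and 6.84% of all genes. On 20 members every Sfrp1_KO array lay below every WT array and on 3 every one lay above, where all genes gave 10.8% and 9.10%, and genes above background 17.1% and 15.0%.

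**Figure D1:**
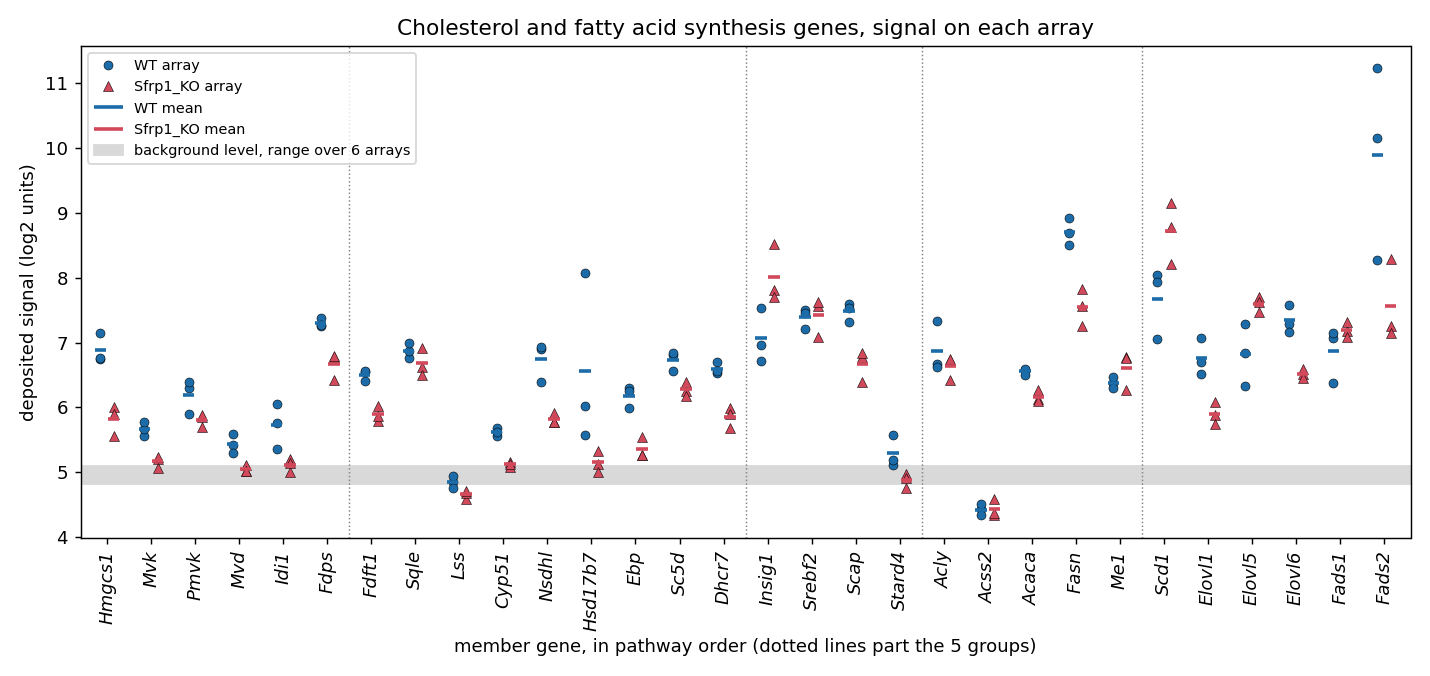
Signal of the 30 measured members on each array (vertical axis, deposited log2 units), with genes in pathway order on the horizontal axis; circles are WT arrays, triangles Sfrp1_KO arrays, short lines group means (n = 3) and the grey band the range of the background level. The triangles lie under the circles for most sterol enzymes, and above them for Insig1, Scd1 and Elovl5.

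The opening steps make mevalonate and isoprenoid units, and 3 of their 6 genes fell. Hmgcs1, the synthase that commits acetyl units to the mevalonate route, read 7.15, 6.74 and 6.76 on the WT arrays and 5.55, 6.01 and 5.90 on the Sfrp1_KO arrays. The groups did not overlap, and the difference was -1.06 (SE 0.16, 95% CI -1.46 to -0.67, limma adjusted p = 0.0247). Mvk, the kinase that phosphorylates mevalonate, read 5.56, 5.67 and 5.78 in WT and 5.21, 5.24 and 5.06 in Sfrp1_KO. It fell by 0.50 (SE 0.10, limma adjusted p = 0.0483) to a level just above background. Fdps, which makes farnesyl diphosphate, read 7.38, 7.26 and 7.28 in WT and 6.77, 6.80 and 6.42 in Sfrp1_KO, a difference of -0.64 (SE 0.12, limma adjusted p = 0.0466). Here the WT arrays lay within 0.13 of each other, and the lowest array was Sfrp1_KO replicate 3.

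The other genes of these steps did not pass the test. Pmvk, the second kinase of the route, stood at 6.20 ± 0.27 (SD, n = 3) in WT and 5.81 ± 0.10 in Sfrp1_KO (difference -0.38, limma adjusted p = 0.300). The decarboxylase gene Mvd stood at 5.44 ± 0.15 and 5.05 ± 0.05 (-0.39, limma adjusted p = 0.116), with 1 Sfrp1_KO array above background. Idi1, which isomerises isopentenyl diphosphate, stood at 5.72 ± 0.35 and 5.12 ± 0.11 (-0.61, limma adjusted p = 0.173). In all 3 every Sfrp1_KO array lay below every WT array, so the 6 genes of this stretch separated the genotypes the same way.

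From squalene to cholesterol, 5 of 9 measured genes fell and the other 4 had differences below 0. Fdft1, the squalene synthase that commits the route to sterols, read 6.55, 6.41 and 6.57 in WT and 6.03, 5.79 and 5.87 in Sfrp1_KO, a difference of -0.61 (SE 0.10, limma adjusted p = 0.0258). Cyp51, which removes a methyl group from lanosterol, read 5.69, 5.56 and 5.63 in WT and 5.09, 5.16 and 5.13 in Sfrp1_KO. It fell by 0.50 (SE 0.08, limma adjusted p = 0.0226), with arrays of a group within 0.13 of each other and the Sfrp1_KO arrays around background. Nsdhl, a dehydrogenase of the following demethylation, read 6.90, 6.94 and 6.39 in WT and 5.91, 5.78 and 5.77 in Sfrp1_KO (-0.92, SE 0.16, limma adjusted p = 0.0349). WT replicate 3 was the lowest of its group and still stood above every Sfrp1_KO array.

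The last steps, which move and reduce double bonds of the sterol rings, held 2 genes that fell. Ebp, the sterol isomerase, read 6.30, 5.99 and 6.25 in WT and 5.54, 5.27 and 5.26 in Sfrp1_KO (-0.82, SE 0.13, limma adjusted p = 0.0236). Dhcr7, the reductase that turns 7-dehydrocholesterol into cholesterol, read 6.53, 6.71 and 6.56 in WT and 5.99, 5.90 and 5.68 in Sfrp1_KO. It fell by 0.74 (SE 0.11, limma adjusted p = 0.0215), the smallest adjusted p among the members. Sc5d, the desaturase just before it, stood at 6.74 ± 0.16 (SD, n = 3) and 6.28 ± 0.11, did not overlap and did not pass (-0.46, limma adjusted p = 0.0989).

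Sqle, Lss and Hsd17b7 were exceptions in different ways. Sqle, the squalene epoxidase that is a rate-limiting enzyme of sterol synthesis, read 6.77, 6.86 and 6.99 in WT and 6.63, 6.91 and 6.50 in Sfrp1_KO. Its groups overlapped, and the difference of -0.19 (95% CI -0.50 to 0.12, limma adjusted p = 0.622) did not pass. Lss, lanosterol synthase, lay under background on every Sfrp1_KO array and on 2 WT arrays, so no size was given for it. Hsd17b7, a sterol ketone reductase, read 8.08, 5.58 and 6.02 in WT and 5.13, 5.32 and 5.01 in Sfrp1_KO. WT replicate 1 stood far above the others, and the difference of -1.41 (SE 0.61, limma adjusted p = 0.375) was -0.65 without that array (limma adjusted p = 0.159). Averaged over all 15 measured sterol enzymes, the arrays read 6.43, 6.13 and 6.21 in WT and 5.64, 5.68 and 5.57 in Sfrp1_KO, and the gap between the groups was wider than the range within either.

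Promoter windows are shown for 4 members, to set the letters of genes that were lower beside those of Insig1. The signal of Insig1 went the other way and did not pass the limma test. RefSeq (assembly GRCm38.p6) gave windows from 250 bases before to 50 after a transcript start for 26 of the 33 listed genes, some with several starts. They were searched on both strands for the sterol response element TCACNCCAC, the NF-Y box CCAAT and the E-box CACGTG. SREBP proteins are known to bind sterol response elements and E-boxes, and NF-Y is known to act beside them. The sequences run 5′ to 3′ on the strand of the gene, with every match in capitals (ATTGG is the NF-Y box on the opposite strand). The windows are chr13:119690101-119690400 (plus strand) for Hmgcs1, chrX:72918271-72918570 (plus strand) for Nsdhl, chr11:120824498-120824797 (minus strand) for Fasn and chr5:28071162-28071461 (plus strand) for Insig1.
Hmgcs1: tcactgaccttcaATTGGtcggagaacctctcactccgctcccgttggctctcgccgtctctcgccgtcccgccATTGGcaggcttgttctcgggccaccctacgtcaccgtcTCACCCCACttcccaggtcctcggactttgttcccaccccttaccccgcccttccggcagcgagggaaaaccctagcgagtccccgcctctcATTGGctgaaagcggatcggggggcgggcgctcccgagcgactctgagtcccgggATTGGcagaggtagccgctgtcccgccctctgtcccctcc
Nsdhl: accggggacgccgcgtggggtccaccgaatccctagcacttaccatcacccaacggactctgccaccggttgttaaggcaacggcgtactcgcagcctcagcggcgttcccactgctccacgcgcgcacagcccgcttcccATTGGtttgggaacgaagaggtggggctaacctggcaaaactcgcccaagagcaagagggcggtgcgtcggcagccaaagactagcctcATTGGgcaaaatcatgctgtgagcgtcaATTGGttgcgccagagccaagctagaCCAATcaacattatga
Fasn: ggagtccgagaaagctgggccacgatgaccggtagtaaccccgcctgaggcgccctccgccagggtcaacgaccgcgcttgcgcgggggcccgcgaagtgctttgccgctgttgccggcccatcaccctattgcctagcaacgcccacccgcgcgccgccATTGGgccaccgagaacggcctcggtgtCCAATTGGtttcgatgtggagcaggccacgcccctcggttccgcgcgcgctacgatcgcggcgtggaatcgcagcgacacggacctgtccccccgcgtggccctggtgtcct
Insig1: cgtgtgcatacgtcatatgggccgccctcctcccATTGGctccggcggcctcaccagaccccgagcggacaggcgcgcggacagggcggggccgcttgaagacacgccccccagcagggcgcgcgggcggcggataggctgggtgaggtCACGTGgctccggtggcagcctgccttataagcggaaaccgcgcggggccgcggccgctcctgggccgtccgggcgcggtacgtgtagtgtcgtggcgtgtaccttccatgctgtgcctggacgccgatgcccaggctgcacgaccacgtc
Hmgcs1 held 1 sterol response element and 4 NF-Y boxes, and it was the only listed gene with an exact sterol response element in its window. Nsdhl held 4 NF-Y boxes and Fasn 3, of which 2 overlap each other, and no other kind of match. Insig1 held 1 NF-Y box and 1 E-box. An NF-Y box stood in 22 of the 26 genes with a window (84.6%) and in 41.1% of all 27025 genes, or in 67.6% and 37.4% of windows. It stood in 8 of the 10 genes called lower that had a window, Scap and Elovl6 being those without. An E-box stood in 20.6% of members' windows, in 21.4% of the windows of members called lower and in 7.15% of all windows. The sterol response element stood in 2.94% of members' windows and 1.24% of all windows. No 2 kinds of motif overlapped in these windows. A match describes letters and is not a measured binding site.

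Of the 4 measured genes of SREBP control and sterol transport 1 fell and none rose by limma, with 2 lower and 1 higher at an unadjusted p under 0.05. Scap, the escort of the SREBP proteins, read 7.60, 7.32 and 7.53 in WT and 6.78, 6.85 and 6.40 in Sfrp1_KO. It fell by 0.81 (SE 0.15, limma adjusted p = 0.0415), and the groups did not overlap. Srebf2, which encodes the SREBP form that favours cholesterol genes, read 7.50, 7.46 and 7.22 in WT and 7.57, 7.62 and 7.09 in Sfrp1_KO. The WT arrays lay within the range of the Sfrp1_KO arrays, with a difference of 0.04 (95% CI -0.36 to 0.43, limma adjusted p = 0.978) whose sign turned when WT replicate 3 or Sfrp1_KO replicate 1 or 2 was left out.

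Insig1, a retention protein that is itself a known SREBP target, read 7.53, 6.72 and 6.96 in WT and 7.81, 8.52 and 7.70 in Sfrp1_KO. Every Sfrp1_KO array lay above every WT array, against the direction of the sterol enzymes. The difference of 0.94 (SE 0.29, 95% CI 0.25 to 1.62) did not pass over all genes (limma adjusted p = 0.183), and did after a second quantile normalization (0.99, limma adjusted p = 0.0451). Stard4, which carries cholesterol between membranes, read 5.57, 5.11 and 5.19 in WT and lay under background on all 3 Sfrp1_KO arrays. The difference was at least 0.22 towards lower in Sfrp1_KO and did not pass (limma adjusted p = 0.237 for the unbounded value).

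**Figure D2:**
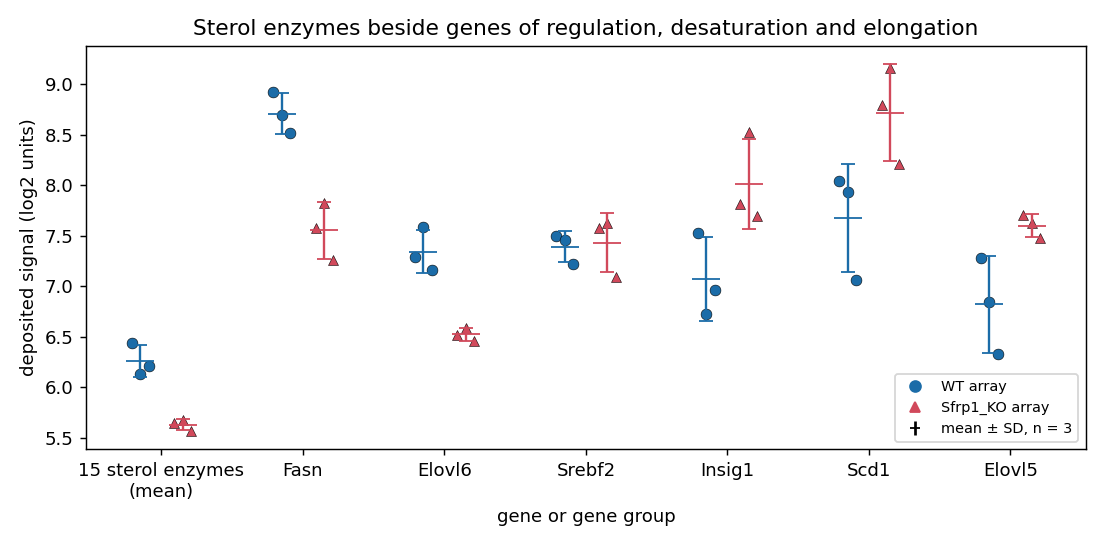
Signal on each array (vertical axis, deposited log2 units) of the mean over 15 sterol enzymes and of 6 genes (horizontal axis); circles are WT arrays, triangles Sfrp1_KO arrays, and bars the mean ± SD (n = 3). The sterol enzymes, Fasn and Elovl6 stand lower in Sfrp1_KO, Srebf2 overlaps, and Insig1, Scd1 and Elovl5 stand higher without passing the limma test.

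Of 5 genes of acetyl-CoA supply and fatty acid synthesis 1 fell, Fasn, the synthase that builds palmitate. It read 8.92, 8.69 and 8.51 in WT and 7.57, 7.82 and 7.26 in Sfrp1_KO. The lowest WT array stood well above the highest Sfrp1_KO array, and the difference was -1.16 (SE 0.17, 95% CI -1.57 to -0.74, limma adjusted p = 0.0218). Acaca, the carboxylase that supplies malonyl-CoA to it, read 6.57, 6.60 and 6.51 in WT and 6.13, 6.27 and 6.10 in Sfrp1_KO. These groups were apart too, by a smaller difference (-0.40, SE 0.08, limma adjusted p = 0.0642), which passed with array weights (limma adjusted p = 0.0497).

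The genes among the members that supply acetyl-CoA and NADPH did not pass. Acly, which cleaves citrate to acetyl-CoA, read 7.33, 6.67 and 6.62 in WT and 6.73, 6.74 and 6.42 in Sfrp1_KO, and its groups overlapped (-0.24, 95% CI -0.74 to 0.26, limma adjusted p = 0.740). Acss2, which makes acetyl-CoA from acetate, lay under background on all 6 arrays. Me1, the malic enzyme that yields NADPH, stood at 6.38 ± 0.08 (SD, n = 3) in WT and 6.60 ± 0.29 in Sfrp1_KO (0.22, limma adjusted p = 0.636).

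Of 3 elongases among the members 2 fell. Elovl6, which extends palmitate to stearate, read 7.29, 7.58 and 7.16 in WT and 6.52, 6.59 and 6.46 in Sfrp1_KO (-0.82, SE 0.12, limma adjusted p = 0.0225). Elovl1, an elongase of very long saturated chains, read 6.52, 6.69 and 7.08 in WT and 6.08, 5.88 and 5.74 in Sfrp1_KO. It fell by 0.86 (SE 0.17, limma adjusted p = 0.0497). Elovl5, which elongates polyunsaturated fatty acids, read 7.28, 6.84 and 6.33 in WT and 7.70, 7.63 and 7.47 in Sfrp1_KO. Every Sfrp1_KO array lay above every WT array, and the difference of 0.78 (SE 0.23, 95% CI 0.22 to 1.34) did not pass (limma adjusted p = 0.172).

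Of the 3 measured fatty acid desaturases among the members none passed by limma over all genes, and Scd1 and Fads2 had an unadjusted p of 0.0187 and 0.0181. Scd1, which makes oleate from stearate, read 8.04, 7.93 and 7.06 in WT and 8.79, 9.16 and 8.21 in Sfrp1_KO. The groups did not overlap, with a difference of 1.04 (SE 0.33, 95% CI 0.24 to 1.84, limma adjusted p = 0.207). A dimmer feature of the gene gave 0.68 (limma adjusted p = 0.450 over 30604 features), but lay under background on most arrays of either group. Fads2, the desaturase that starts polyunsaturated fatty acid synthesis, read 11.23, 10.16 and 8.28 in WT and 7.26, 8.28 and 7.15 in Sfrp1_KO. The WT arrays spread over nearly 3 units, and WT replicate 3 and Sfrp1_KO replicate 2 met at the same level. The difference of -2.33 (SE 0.74, limma adjusted p = 0.204), the largest among the members, passed when WT replicate 3 was left out (-3.13, limma adjusted p = 0.0439), and the second feature gave -1.68. Fads1, which acts after it, stood at 6.87 ± 0.42 (SD, n = 3) in WT and 7.19 ± 0.11 in Sfrp1_KO (0.33, limma adjusted p = 0.609). Desaturase and elongase genes have close relatives whose transcripts could add to the same probes, which makes these values less certain.

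**Figure D3:**
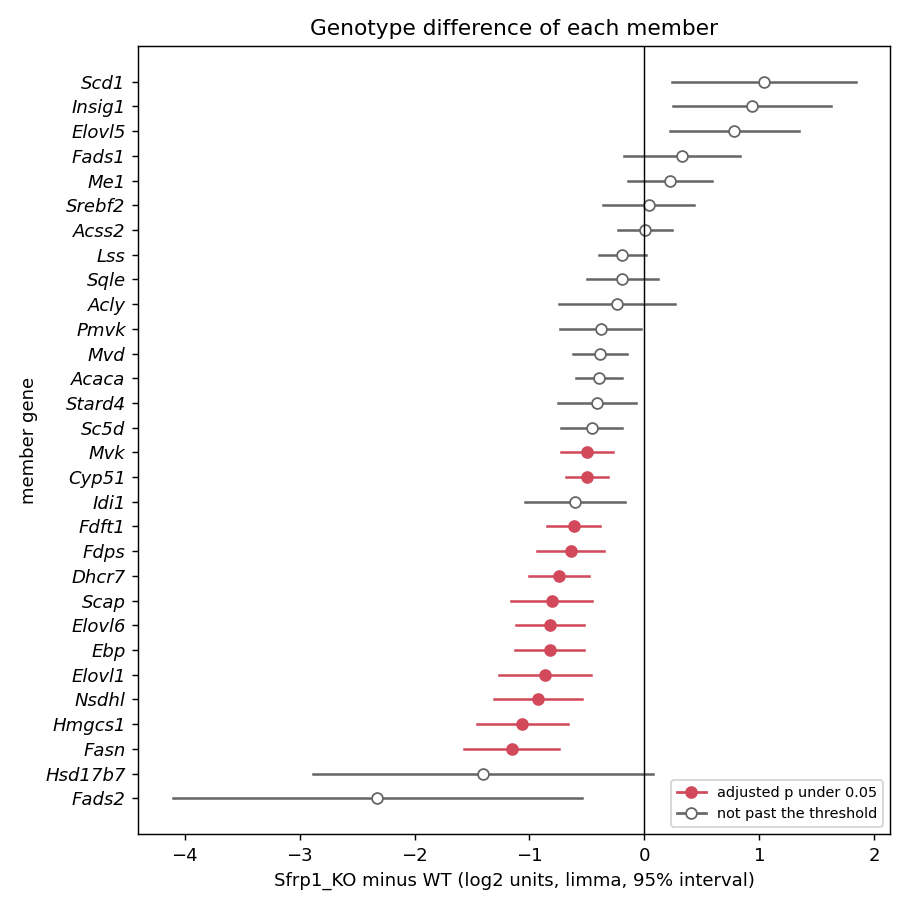
Difference of each of the 30 measured members (vertical axis, sorted), Sfrp1_KO minus WT in log2 units (horizontal axis), as points with the 95% limma interval; filled red points have an adjusted p under 0.05 over all genes. All 12 filled points lie below 0, between -1.16 for Fasn and -0.50 for Mvk and Cyp51, and the intervals of Insig1, Scd1 and Elovl5 lie above 0.

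The calls of single members depended on the arrays. Leaving out WT replicate 1, 2 or 3 left 3, 3 and 4 members called lower, and leaving out Sfrp1_KO replicate 1, 2 or 3 left 0, 1 and 2. The members still called were Hmgcs1, Dhcr7 and Elovl1 without WT replicate 1, Fdft1, Ebp and Elovl6 without WT replicate 2, and Nsdhl, Fasn and Elovl6 without WT replicate 3, where Fads2 was newly called. They were Fasn without Sfrp1_KO replicate 2, and Dhcr7 and Fasn without Sfrp1_KO replicate 3. No member kept its call under all 6 omissions. Across the same omissions 16 to 20 members were lower at an unadjusted limma p under 0.05, 23 or 24 of 30 had a difference below 0, and the median ran from -0.52 to -0.43. The share of all genes called lower also fell, from 1.45% to between 0.332% and 1.35%. With trend and robust options in limma, Mvk (adjusted p = 0.0524), Fdps (0.110), Scap (0.0753) and Elovl1 (0.0531) were not called, nor were Mvk (0.0717) and Elovl1 (0.0902) after a second quantile normalization. Without moderation of the variances, and against a minimum difference of 1 log2 unit, no member was called, while 17 and 0 were lower at an unadjusted p under 0.05. Of all genes 0.0697% and 0.123% were called lower in these fits, and 6.39% and 0.677% were lower at an unadjusted p under 0.05.

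Genes next to the pathway were described in 5 further lists, with 76 of 89 entries measured and 7 called. Of 15 genes of sterol uptake, storage and export 3 rose and none fell by limma, with a median of 0.16; 7 were higher and 1 lower at an unadjusted p under 0.05. Mylip, the ubiquitin ligase that removes lipoprotein receptors, read 6.95, 6.75 and 6.79 in WT and 9.27, 9.05 and 8.60 in Sfrp1_KO. It rose by 2.14 (SE 0.17, limma adjusted p = 0.00377), a call kept without any 1 array. Without moderation and against a minimum difference of 1 log2 unit none of the 7 genes was called (limma adjusted p = 0.0779 and 0.0695 for Mylip). Abca1, the exporter of cholesterol to lipoproteins, read 6.26, 5.75 and 5.93 in WT and 7.03, 7.50 and 7.10 in Sfrp1_KO (1.23, SE 0.18, limma adjusted p = 0.0207). Mylip and Abca1 are known targets of the sterol-sensing LXR receptors. Npc2, which hands cholesterol out of lysosomes, rose by 0.77 (SE 0.14, limma adjusted p = 0.0413). Abca1 and Npc2 passed without WT replicate 1 and lost their calls without any other array, and Npc2 also with trend and robust options (limma adjusted p = 0.0551).

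Of 24 genes of fatty acid supply, elongation and activation 3 fell and none rose by limma, with a median of -0.19; 8 were lower and 0 higher at an unadjusted p under 0.05. Slc25a1, the mitochondrial carrier that exports citrate, read 7.73, 7.11 and 7.71 in WT and 6.47, 6.39 and 6.35 in Sfrp1_KO (-1.11, SE 0.18, limma adjusted p = 0.0268). Fads3, a relative of Fads2, read 9.44, 8.40 and 8.07 in WT and 6.75, 6.50 and 5.53 in Sfrp1_KO, a fall of 2.38 on the log2 scale (SE 0.44, limma adjusted p = 0.0448). Aacs, which activates acetoacetate for lipid synthesis, fell by 0.50 (SE 0.09, limma adjusted p = 0.0408). The call of Slc25a1 held without WT replicate 2 and ended without any other array, and those of Fads3 and Aacs ended without any 1 of the 6. Trend and robust options ended the call of Aacs (limma adjusted p = 0.0801). Elovl4, which elongates the very long chains of barrier lipids, stood at 6.03 ± 0.85 (SD, n = 3) in WT and lay under background on all Sfrp1_KO arrays (at least 0.96 lower, limma adjusted p = 0.0917 for the unbounded value).

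**Figure D4:**
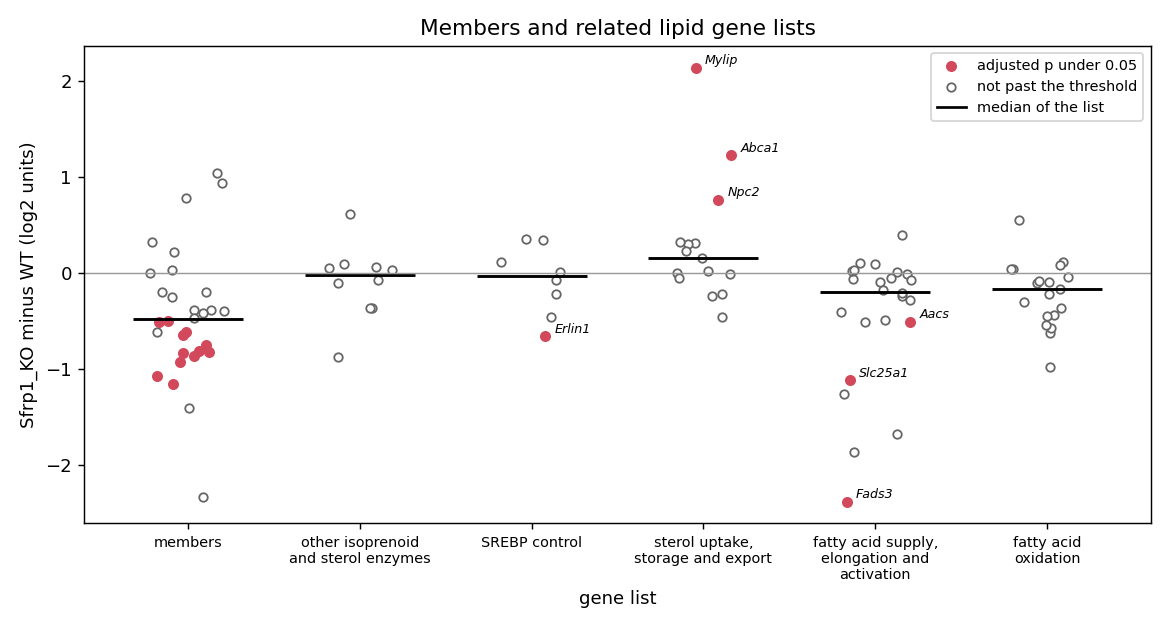
Difference of each gene, Sfrp1_KO minus WT in log2 units (vertical axis), for the members and 5 related lists (horizontal axis); filled red points have an adjusted p under 0.05 and black lines are list medians. The members' median is -0.48, the uptake and export list has its 3 called genes above 0, and the list of fatty acid supply has its 3 below.

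In the remaining 3 lists 1 gene passed. Of 8 further genes of SREBP control only Erlin1, an endoplasmic reticulum protein that binds cholesterol, fell. It stood at 7.20 ± 0.15 in WT and 6.54 ± 0.14 in Sfrp1_KO (SD, n = 3), a difference of -0.66 (SE 0.11, limma adjusted p = 0.0362). Its call held without WT replicate 1 and ended without any other array, with trend and robust options (limma adjusted p = 0.0880), and after a second quantile normalization (0.0913). The mean over its features differed by -0.27 (limma adjusted p = 0.635). Insig2, the relative of Insig1 in this list, differed by -0.07 and did not pass (limma adjusted p = 0.813). The list median was -0.02. None of 10 further enzymes of isoprenoid and sterol branches passed by limma, while 1 was higher and 3 lower at an unadjusted p under 0.05 (median -0.02). Ggps1, which makes geranylgeranyl diphosphate and draws on the same isoprenoid pool as Fdft1, stood at 5.86 ± 0.26 (SD, n = 3) and 6.48 ± 0.18 (0.62, limma adjusted p = 0.116), and the farnesyltransferase subunit gene Fntb at 5.43 and 5.06 (limma adjusted p = 0.217). None of 19 fatty acid oxidation genes passed by limma, while 1 was higher and 5 lower at an unadjusted p under 0.05 (median -0.16). In that list Echs1, an enoyl-CoA hydratase, differed by 0.55 (limma adjusted p = 0.0642) and Hadha, a subunit of the trifunctional protein, by -0.56 (limma adjusted p = 0.0841). Among all genes 1.45% were called lower and 1.83% higher, and at an unadjusted p under 0.05 the shares were 7.54% and 6.84%.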

How the data were processed

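RNA of 3 WT and 3 Sfrp1_KO samples was measured on 1 array each. The authors deposited log2 signals, for which the submitters' processing notes name RMA and Affymetrix Expression Console. Versions, summarisation level and annotation build: not given in the sources used here. No scanner files or detection flags were used. RMA is made to bring arrays to 1 distribution, so a shift shared by most genes cannot be seen. The deposited arrays still differed somewhat, with medians over all features from 4.32 to 4.46. Of the genes compared 34.5%, 36.9% and 42.5% lay above background on the WT arrays. On the Sfrp1_KO arrays 33.2%, 33.2% and 35.0% did. Platform symbols, updated by gene ID from RefSeq (GRCm38.p6), gave 30604 features with 1 symbol and 30142 genes, the brightest feature standing for each. The genotype difference was fitted in R 4.3.3 with limma 3.58.1 (lmFit, eBayes, two-sided, no covariates), with Benjamini-Hochberg adjustment over all genes. Where all arrays of a group lay at or under background, a difference is given as at least the gap to the background level. The fit was tested on simulated data. The members, related lists, markers and motifs were chosen with earlier results of these data known. Named were all members and, per related list, up to 3 called genes in each direction, or the 2 with the smallest p where none passed; Elovl4 was added after its values were seen. The replicate numbers of the genotypes were checked for pairing and not treated as pairs. Alternatives were a replicate block, dim features left out, mean of features, renewed quantile normalization, array weights, trend and robust options, no moderation, a minimum difference of 1 and omission of each array. Precision is limited by the number of arrays.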

Additional observations from a re-analysis of the deposited data

How the results depend on the processing

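The count of 12 members called lower was 3 with the replicate number as a block (replicate block: Fasn, Ebp and Elovl6). It was 0 without moderation of variances and 0 in the test against a difference of 1 log2 unit. Of all genes 0.79%, 0.0697% and 0.123% were called lower in these settings, against 1.45% in the main fit. At an unadjusted p under 0.05, limma without moderation still had 17 members lower and 0 higher, and the test against 1 unit 0 and 0. Of all genes 6.39% were lower and 6.31% higher in this way without moderation, and 0.677% and 0.753% against 1 unit. Leaving out single arrays gave 0 to 4. Members called higher numbered 0, and 1 under the block (Scd1, adjusted p = 0.0466) and 1 after renewed quantile normalization (Insig1). The median difference of the members ran from -0.5197 to -0.4319 over the omitted arrays and stayed below 0 under all alternatives that give one. A count restricted to members above background on every WT array, chosen after seeing the data, was 12 by construction. All 12 members called lower met that filter and the fit was the same, so it tests nothing. Trend and robust options gave 8, renewed quantile normalization 10 and array weights 13, where 1.46%, 1.87% and 1.91% of all genes were called lower. Over the omitted arrays Srebf2 ran from -0.0602 to 0.2047, with -0.052 without WT replicate 3 and -0.036 without Sfrp1_KO replicate 1. Acss2, under background throughout, ran from -0.0713 to 0.0506, with -0.040 without WT replicate 2, and was -0.041 with array weights. Of the 7 calls in the related lists 2 remained under the replicate block (Mylip and Fads3), and 0 without moderation and in the test against 1 unit. The causes were not tested. The labels give same-numbered samples nothing in common but the number. Their deviations correlated at 0.18, -0.12 and 0.17 across genes, and those of unlike-numbered samples at -0.33 to 0.25. With 3 arrays per group these values cannot decide whether samples were paired.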
